A study of Danio rerio with 12 samples.

Results

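The 9 genes described here belong to the zebrafish blood clotting pathway: the fibrinogen chain genes fga, fgb and fgg, the genes of prothrombin (f2) and of coagulation factors V, VII and X (f5, f7 and f10), and f13a1a.1 and f13a1b, which encode A chains of factor XIII. They were taken by gene symbol from the count table, which held all 9 of them among 32520 genes, and all 9 had enough counts to be tested. The set was chosen by the measured level of f13a1a.1, which was higher in all 3 exposures than in the solvent control. Its values against that control are therefore a description with no test, and the other 8 genes are set beside it. The data are RNA sequencing counts from 12 libraries of whole wild-type embryos of the AB strain at 3 days of age, 3 libraries per group, 1 from each of clutches 1, 2 and 4. Exposure began 2 to 4 hours after fertilisation and lasted until collection. The groups received 30 µM testosterone, 30 µM testosterone with 5 µM calindol, 30 µM testosterone with 100 µM EGCG (a polyphenol of green tea, epigallocatechin gallate), or 0.1% DMSO (dimethyl sulfoxide) as the vehicle. The study's design describes EGCG as a strong and calindol as a weak antagonist of GPRC6A, a membrane receptor, and asks for gene targets of testosterone acting through it. No group received calindol or EGCG without testosterone, so what either does alone cannot be told apart from what it does to the testosterone response. How many embryos a library holds, and whether the exposures also contained DMSO, is not given in the sources used here.

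Clotting is a cascade in which inactive plasma proteases activate one another. Tissue factor and factor VII activate factor X, factor X with its cofactor factor V cuts prothrombin to thrombin, and thrombin cuts fibrinogen to fibrin. Factor XIII is a transglutaminase, activated by thrombin, that cross-links the fibrin strands. Most of these proteins are made by hepatocytes, and the fibrinogen genes are known for being transcribed together in the liver. The factor XIII A chain differs, since in mammals it is made mainly by megakaryocytes, platelets and macrophages.

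Library totals ranged from 8181295 to 22510680 counts. The shallowest was the clutch 1 library of testosterone and EGCG, in which a single count equals 0.119 CPM (counts scaled to a common library size). CPM values use library sizes adjusted by edgeR's TMM factors. Levels can be compared between groups for a gene, but not between genes, because counts were not divided by transcript length. In RNA from whole embryos, fewer cells of a type and less RNA per cell cannot be told apart.

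With testosterone and EGCG, 6 of the 8 other clotting genes differed from DMSO: f2, fga, fgb, f5 and f13a1b fell, by log2 fold changes of −0.47 to −0.83, and f10 rose by 0.61. With testosterone alone none of the 8 passed the threshold, and with testosterone and calindol only f7 did, by 0.28. The threshold was an adjusted p under 0.05 in edgeR's quasi-likelihood test, with Benjamini-Hochberg adjustment over the 20237 genes tested. Over all genes, 17% passed with testosterone and EGCG, 6.32% with testosterone and 27.4% with testosterone and calindol. Split by direction, 7.69% of all genes were higher and 9.33% lower with EGCG, 11.5% and 15.9% with calindol, and 2.93% and 3.39% with testosterone alone. Counting both directions, the share of members called was above the background share for EGCG, 6 of 8, and below it for calindol, 1 of 8. The call with calindol was a rise, so by direction 1 of 8 stands beside 11.5%. The background shares are over genes of all levels and were not matched to the levels of the members. These counts were not tested against the background shares, and the members were chosen with earlier results of these data known. The members are not independent, with a Pearson r of 0.97 to 0.98 among f2, fga and fgb over the 12 libraries. The f7 call with calindol was lost in 9 of 17 alternatives. With testosterone 4 of the 8 had an unadjusted p under 0.05 and DESeq2 called 1, f10. The median log2 fold change of the 8 genes was −0.53 with EGCG, 0.10 with calindol and −0.17 with testosterone alone, against 0.0025, 0.0092 and 0.0015 over all genes. All 8 genes had EGCG libraries that did not overlap DMSO, 7 below and f10 above, against 21.6% and 21.4% of all genes. With testosterone alone f10 and fgg lay above DMSO and fgb below, against 13.4% and 13% of all genes. With calindol f7 lay above, against 20.3% of all genes above and 22.7% below. The 3 comparisons share the DMSO libraries.

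**Figure D1:**
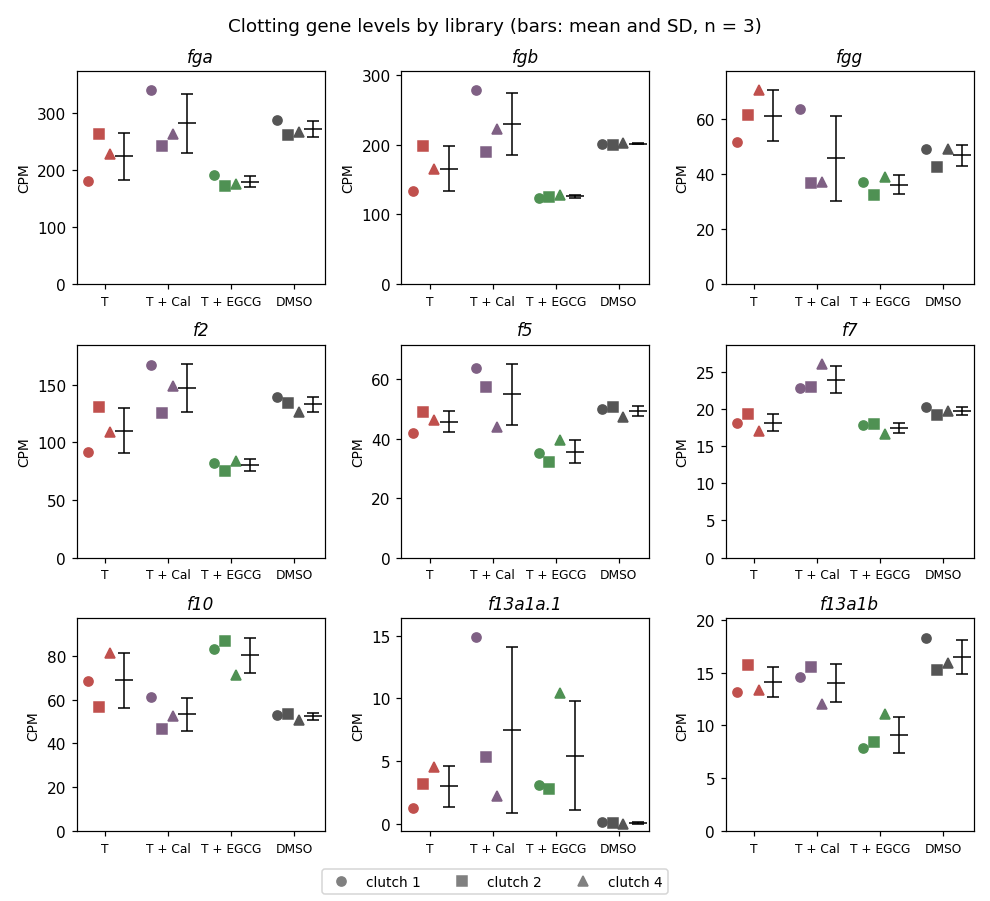
Level of each gene in CPM (y axes, linear) in each library of testosterone (T), testosterone and calindol (T + Cal), testosterone and EGCG (T + EGCG) and DMSO; marker shapes give the clutch, and the bars give the mean and SD (n = 3). The EGCG libraries of f2, fga, fgb, f5 and f13a1b lie below every DMSO library and those of f10 above, while f13a1a.1 is near 0 only in DMSO.

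Prothrombin, the precursor of thrombin, is encoded by f2 (ENSDARG00000036041). In the order of clutches 1, 2 and 4, f2 had 82.0, 74.9 and 84.2 CPM with testosterone and EGCG, against 139, 134 and 126 CPM in DMSO. Every EGCG library lay below every DMSO library. The mean was 80.4 ± 4.88 CPM with testosterone and EGCG and 133 ± 6.65 CPM in DMSO (SD, n = 3 each), which is 0.604-fold (log2 fold change −0.73, SE 0.12, adjusted p 0.00135 by edgeR). With testosterone alone f2 had 91.3, 130 and 109 CPM, and the clutch 2 library lay within the DMSO range. Its log2 fold change against DMSO was −0.27 (95% interval −0.52 to −0.02), with an adjusted p of 0.212, and 0.0459 without that library. In the other 16 of 17 alternatives f2 did not pass there. With testosterone and calindol it had 167, 125 and 149 CPM, and the log2 fold change of 0.14 against DMSO had an adjusted p of 0.405.

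Factor X, the protease that cuts prothrombin, is encoded by f10 (ENSDARG00000088581). Among the 8 genes other than f13a1a.1, f10 was the only one that rose with testosterone and EGCG against DMSO. It had 83.0, 86.5 and 71.0 CPM with testosterone and EGCG, against 53.1, 53.3 and 50.6 CPM in DMSO. The groups did not overlap, and the fold was 1.53 (log2 fold change 0.61, SE 0.13, adjusted p 0.00512 by edgeR). Testosterone alone gave 68.4, 56.5 and 81.3 CPM, also above every DMSO library. That log2 fold change of 0.39 (95% interval 0.13 to 0.66) had an adjusted p of 0.0794. It passed with the DESeq2 test (adjusted p 0.0429), without the clutch 2 library of testosterone (0.0176) and without the clutch 1 library of calindol (0.0463). In the other 14 of 17 alternatives it did not pass, with an adjusted p of up to 0.287. With testosterone and calindol the values were 61.3, 46.4 and 52.4 CPM, on both sides of the DMSO range.

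Factor VII, which starts the cascade with tissue factor, is encoded by f7 (ENSDARG00000034862), the member that passed with calindol. It had 22.8, 23.0 and 26.1 CPM with testosterone and calindol, against 20.3, 19.1 and 19.7 CPM in DMSO. Although the libraries did not overlap, the log2 fold change was 0.28 (SE 0.10) and its adjusted p was 0.0421 by edgeR. With clutch as a block the adjusted p was 0.0662, with DESeq2 it was 0.0548, without a filter 0.0710, in a fit of only the 6 libraries 0.0538, and without the DMSO library of clutch 1, 2 or 4 it was 0.0737, 0.119 or 0.106. It was 0.148 without the calindol library of clutch 4 and 0.0519 without the EGCG library of that clutch. With testosterone alone f7 had 18.2, 19.2 and 17.03 CPM, and with testosterone and EGCG 17.8, 17.9 and 16.7 CPM. Its log2 fold changes against DMSO were −0.12 with testosterone (adjusted p 0.529) and −0.18 with EGCG (adjusted p 0.226, 95% interval −0.39 to 0.03), although all 3 EGCG libraries lay below DMSO.

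Factor V, the cofactor that speeds prothrombin cleavage, is encoded by f5 (ENSDARG00000055705). Its levels were 35.2, 32.0 and 39.6 CPM with testosterone and EGCG, against 49.9, 50.6 and 47.4 CPM in DMSO. No EGCG library reached the lowest DMSO library, and the log2 fold change was −0.47 (SE 0.12, adjusted p 0.0180 by edgeR). The call was lost without the EGCG library of clutch 1 (adjusted p 0.0570) or 2 (0.0916) and without the DMSO library of clutch 1 (0.0586) or 2 (0.0639). Testosterone alone gave 41.9, 48.8 and 46.3 CPM and testosterone with calindol 63.7, 57.3 and 43.7 CPM. Both sets overlapped DMSO. The log2 fold change was −0.11 for testosterone (adjusted p 0.668) and 0.16 for calindol (adjusted p 0.364, and 0.0443 without the calindol library of clutch 4). For calindol the other 16 of 17 alternatives did not pass.

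Fibrinogen is built from Aα, Bβ and γ chains, encoded by fga, fgb and fgg. The genes fga (ENSDARG00000020741) and fgb (ENSDARG00000008969) fell with testosterone and EGCG against DMSO by close amounts. For fga the values were 191, 172 and 176 CPM with testosterone and EGCG, against 287, 261 and 266 CPM in DMSO (log2 fold change −0.60, SE 0.13, adjusted p 0.00696 by edgeR). For fgb they were 124, 125 and 128 CPM with testosterone and EGCG, against 201, 199.97 and 202 CPM in DMSO (log2 fold change −0.68, SE 0.13, adjusted p 0.00400 by edgeR). In both genes the groups were separate, and the libraries of each group lay close together.

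The γ chain gene fgg (ENSDARG00000037281) had another pattern. It had 37.1, 32.3 and 38.8 CPM with testosterone and EGCG, against 48.8, 42.4 and 49.1 CPM in DMSO. All EGCG libraries were below DMSO, but the log2 fold change of −0.38 (95% interval −0.76 to 0.01) had an adjusted p of 0.165. It passed in a fit of only these 6 libraries (adjusted p 0.00374) and without the calindol library of clutch 1 (0.0237), but not in the other 15 of 17 alternatives. With testosterone alone fgg had 51.7, 61.2 and 70.3 CPM, above every DMSO library. That log2 fold change of 0.39 had an adjusted p of 0.228, and 0.0369 without the same calindol library. The other 16 of 17 alternatives did not pass. Testosterone alone left fga at 180, 263 and 228 CPM and fgb at 133, 198 and 165 CPM, with a log2 fold change of −0.28 against DMSO for each (adjusted p 0.239 and 0.252). With testosterone and calindol the clutch 1 library was the highest for all 3 chains, at 340 CPM for fga, 278 CPM for fgb and 63.6 CPM for fgg. The other calindol libraries had 242 and 263 CPM for fga, 190 and 222 CPM for fgb, and 36.5 and 36.9 CPM for fgg. Against DMSO the log2 fold change was 0.05 for fga (adjusted p 0.808), 0.19 for fgb (adjusted p 0.304) and −0.03 for fgg (adjusted p 0.911).

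**Figure D2:**
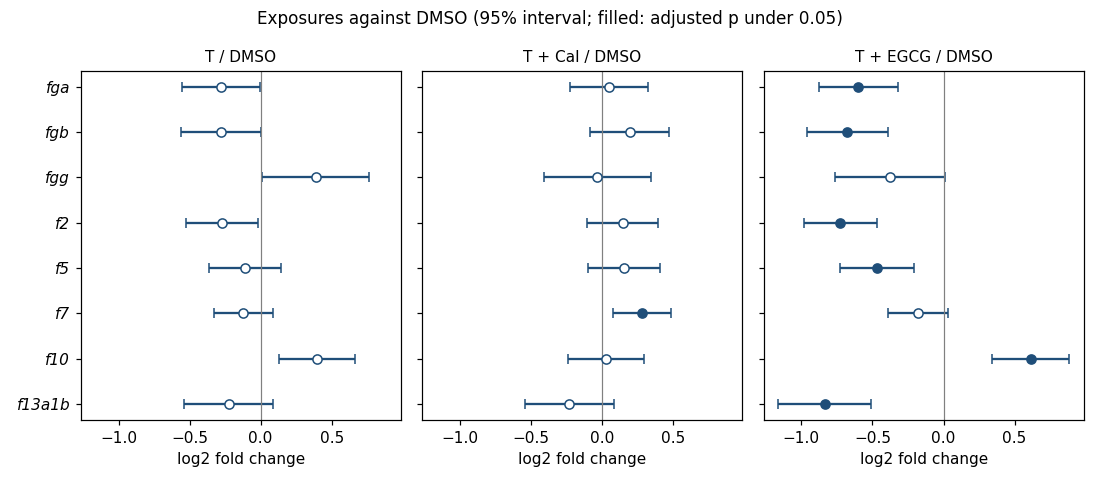
Log2 fold change against DMSO (x axes) of the 8 clotting genes other than f13a1a.1, for testosterone, testosterone and calindol, and testosterone and EGCG; points are edgeR estimates, bars 95% intervals, and filled points have an adjusted p under 0.05. Filled points number 0 with testosterone, 1 with calindol and 6 with EGCG.

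Factor XIII A chains are encoded by f13a1a.1 (ENSDARG00000045453) and f13a1b (ENSDARG00000036893). The raw counts of f13a1a.1 were 16, 59 and 103 with testosterone alone, 275, 105 and 36 with calindol added, and 26, 43 and 190 with EGCG added, against 2, 1 and 0 in DMSO. Scaled to CPM these became 1.27, 3.20 and 4.50 with testosterone alone, 14.9, 5.31 and 2.21 with calindol added, and 3.08, 2.74 and 10.5 with EGCG added, against 0.106, 0.0530 and 0 in DMSO. The exposed libraries thus varied widely, and the highest came from clutch 4 with testosterone, from clutch 1 with calindol and from clutch 4 with EGCG. The ratio of pooled CPM to DMSO was 64.7 with testosterone, 150 with calindol and 120 with EGCG. These ratios rest on 3 counts in DMSO. No interval is given, since the set was chosen by this rise and the libraries of a group varied widely. Without the DMSO library of clutch 1, where only 1 count remains, the ratios were 132 for testosterone, 304 for calindol and 244 for EGCG. Without the DMSO library of clutch 4, which had no count, they were 41.6 for testosterone, 96.1 for calindol and 77.1 for EGCG. Without the calindol library of clutch 1 the calindol ratio was 76.6, and without the EGCG library of clutch 4 the EGCG ratio was 56.0.

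The copy f13a1b had 7.82, 8.47 and 11.1 CPM with testosterone and EGCG, against 18.3, 15.2 and 15.9 CPM in DMSO. It fell with EGCG to 0.561-fold, the largest fall among the members (log2 fold change −0.83, SE 0.15, adjusted p 0.00261 by edgeR). With testosterone alone it had 13.1, 15.7 and 13.4 CPM and with calindol 14.6, 15.5 and 11.98 CPM. Both ranges overlapped DMSO, with a log2 fold change of −0.23 for each (adjusted p 0.426 and 0.271). Another row of the table, labelled F13A1 (ENSDARG00000094832) and looked up after the values were seen, had too few counts to be tested. It had 3, 7 and 5 counts with testosterone alone, 4, 5 and 4 with calindol added, and 3, 0 and 2 with EGCG added, against 0 in each DMSO library. In the RefSeq annotation of the GRCz12tu assembly, f13a1a.1 and a gene named f13a1a.2 have 1 other gene between them. Whether similar copies exchanged reads was not tested.

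The comparisons between exposures ask what calindol or EGCG changed when added to testosterone. With EGCG against testosterone alone, fgg, f13a1b and f2 fell, 3 of the 9 genes, against 11.6% of all genes (5.59% lower and 6.05% higher). The log2 fold change was −0.76 for fgg (SE 0.18, adjusted p 0.0162), −0.61 for f13a1b (SE 0.15, adjusted p 0.0222) and −0.46 for f2 (SE 0.12, adjusted p 0.0258), by edgeR. For these genes, and for f5 and fgb, all EGCG libraries lay below all testosterone libraries, against 15.9% of all genes below and 15.8% above. The genes f5 and fgb did not pass (log2 fold change −0.36 for f5, adjusted p 0.0713, and −0.40 for fgb, adjusted p 0.0646). By edgeR, fga (−0.32, adjusted p 0.124), f10 (0.22, adjusted p 0.278) and f7 (−0.06, adjusted p 0.750) did not pass either. The EGCG and testosterone libraries of fga, f10 and f7 overlapped. This comparison depended on single libraries: 0 of the 9 genes passed without the EGCG library of clutch 1 or of clutch 2, and 1 passed without the testosterone library of clutch 2. Without the testosterone library of clutch 1 there were 5, and without the calindol library of clutch 1 there were 6. For the counts of 0, the highest adjusted p among fgg, f13a1b and f2 was 0.0910 and 0.113.

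With calindol against testosterone alone, f7, fgb and f2 rose and f10 fell, 4 of the 9 genes, against 25.8% of all genes (11% higher and 14.8% lower). The log2 fold changes were 0.40 for f7 (SE 0.10, adjusted p 0.00711), 0.47 for fgb (SE 0.13, adjusted p 0.0164), 0.41 for f2 (SE 0.12, adjusted p 0.0184) and −0.37 for f10 (SE 0.13, adjusted p 0.0437), by edgeR. Only for f7 were all calindol libraries above all testosterone libraries, against 17.3% of all genes above and 19% below. The adjusted p of f10 was 0.0536 with clutch as a block, and it was above the threshold in 11 of 17 alternatives, at most 0.239 without the testosterone library of clutch 4. Without the testosterone library of clutch 1, only f7 passed. The calls of f2 and fgb were also lost without the calindol library of clutch 1 (adjusted p 0.0703 and 0.0696) and in a fit of only the 6 libraries (0.0730 and 0.0784).

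EGCG against calindol, each with testosterone, separated the most members. The genes f2, fgb, fga, f5, f13a1b and f7 were lower with EGCG and f10 was higher, 7 of the 9 genes, against 43.1% of all genes (22% lower and 21.1% higher). The log2 fold changes were −0.87 for f2 and for fgb (adjusted p 4.87e-05 and 0.000118), −0.65 for fga (0.00101), −0.62 for f5 (0.000848), −0.60 for f13a1b (0.00548), −0.46 for f7 (0.0017) and 0.59 for f10 (0.00176), by edgeR. In all 7 genes the 3 EGCG libraries lay on 1 side of the 3 calindol libraries, against 28.7% of all genes below and 24.9% above. The count was 7 in each of the 12 fits that left out a library. The doses differ, at 100 µM for EGCG and 5 µM for calindol.

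For f13a1a.1 the exposures overlapped one another. The log2 fold change was 1.28 for calindol against testosterone (95% interval −0.04 to 2.60, adjusted p 0.148), 0.86 for EGCG against testosterone (−0.49 to 2.20, adjusted p 0.403) and −0.42 for EGCG against calindol (−1.71 to 0.86, adjusted p 0.605). These intervals are wide and do not show that the exposures gave equal levels. Without the calindol library of clutch 4, which was the lowest of its group, the first adjusted p was 0.0458. The other 16 of 17 alternatives did not pass. Over the alternatives that log2 fold change was as low as 0.30 and its adjusted p as high as 0.761.

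**Figure D3:**
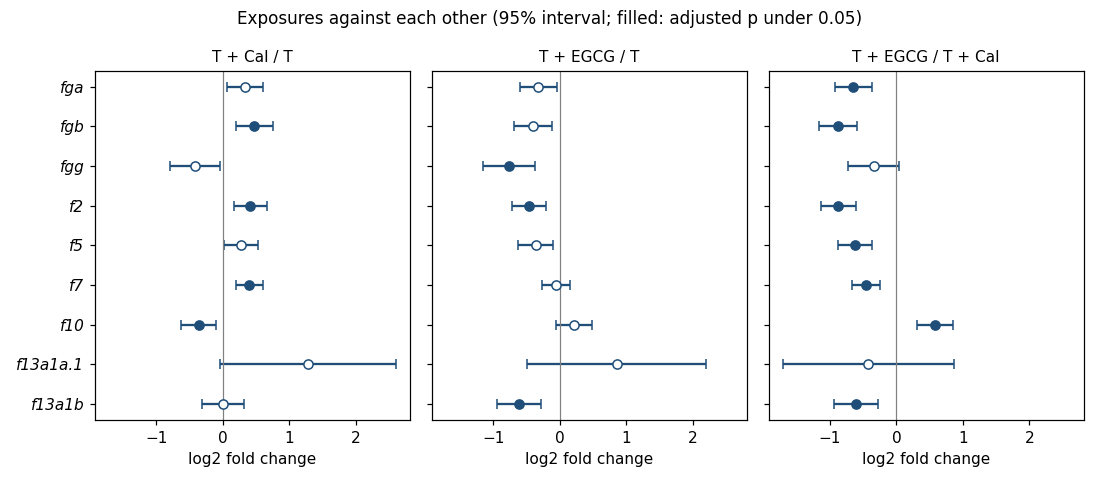
Log2 fold change between exposures (x axes) of the 9 clotting genes, for calindol added to testosterone, EGCG added to testosterone, and EGCG against calindol with testosterone in both; points are edgeR estimates, bars 95% intervals, and filled points have an adjusted p under 0.05. Filled points number 4, 3 and 7, and the intervals of f13a1a.1 are the widest.

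The members also changed relative to each other within a library, where scaling has no part. The ratio of fgg to fga counts was 0.287, 0.233 and 0.308 with testosterone alone, 0.187, 0.151 and 0.140 with calindol added, and 0.194, 0.188 and 0.221 with EGCG added, against 0.170, 0.162 and 0.185 in DMSO. Thus it was higher with testosterone and with EGCG than in any DMSO library, and highest with testosterone alone. By contrast, the ratio of fgb to fga ranged from 0.724 to 0.755 with testosterone, 0.782 to 0.845 with calindol and 0.647 to 0.728 with EGCG, against 0.70 to 0.765 in DMSO. It was above DMSO only with calindol. The ratio of f10 to f7 counts was 3.77, 2.94 and 4.77 with testosterone alone, 2.69, 2.02 and 2.01 with calindol added, and 4.67, 4.83 and 4.26 with EGCG added, against 2.61, 2.78 and 2.57 in DMSO. It was thus above DMSO in all libraries of testosterone and of EGCG. These ratios were chosen after the values were seen and were not tested. In the RefSeq annotation of GRCz12tu, f7 and f10 have only f7i between them, and fga and fgb have 1 gene between them, while fgg lies on the same chromosome with 359 annotated genes between it and fga.

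**Figure D4:**
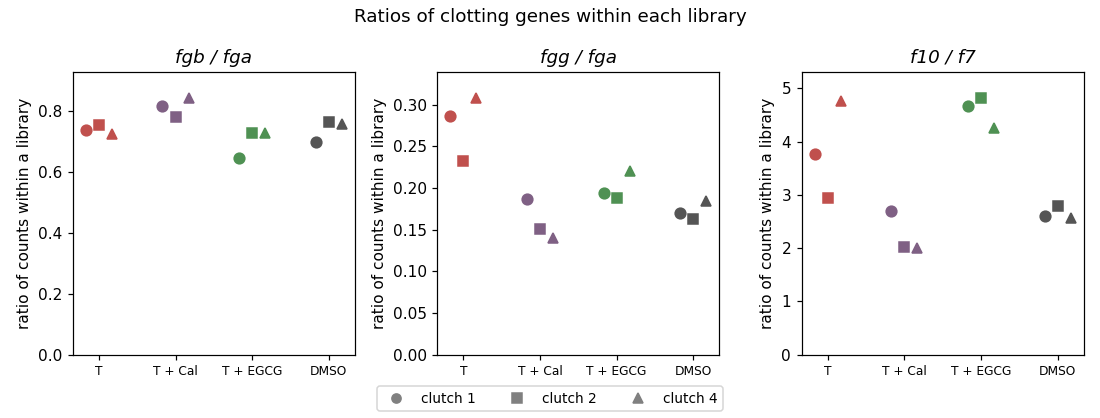
Ratio of counts of fgb to fga, fgg to fga and f10 to f7 (y axes, from 0) in each library of testosterone (T), testosterone and calindol (T + Cal), testosterone and EGCG (T + EGCG) and DMSO; marker shapes give the clutch. The ratios of fgg to fga and of f10 to f7 lie above DMSO in all libraries with testosterone alone and with EGCG.

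Across the 12 libraries, log2 CPM of fgb was closest to that of f2 (Pearson r 0.98), followed by zgc:152830 (0.98), arpc1b, fga (both 0.97) and ppib (0.97). The gene ppib encodes a chaperone of the secretory pathway and arpc1b a subunit of the actin-nucleating Arp2/3 complex. The r of f10 with f2, fga, fgb, f5, f7 and f13a1b ranged from −0.68 to −0.78, and that of fgg with fgb was 0.43. The genes nearest to f13a1a.1 were anxa1a (0.96), si:ch211-276i12.9 (0.95), nsa2 (0.94), krt91 (0.94) and cbsb (0.93). For example, anxa1a, an annexin gene, had 156 to 182 CPM with testosterone, 145 to 262 CPM with calindol and 155 to 187 CPM with EGCG, against 104 CPM in each DMSO library. These correlations are descriptions over libraries that fall into 4 groups and share their scaling. Those with f13a1a.1 include its rise over DMSO, by which the set was chosen.

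The wider pathway was read from gene lists. Among 6 other coagulation factor genes tested, 2 passed with testosterone, 1 with calindol and 3 with EGCG. Over all genes, 6.32% passed with testosterone, 27.4% with calindol and 17% with EGCG. Counts in lists this short were not tested against these shares, here or below. The gene f7i, whose product in zebrafish is a factor VII relative that inhibits clotting, had 10.8, 24.7 and 20.0 CPM with testosterone, 43.3, 30.3 and 38.4 CPM with calindol, and 17.5, 17.2 and 19.1 CPM with EGCG, against 43.8, 42.2 and 52.5 CPM in DMSO. It fell with testosterone (log2 fold change −1.30, SE 0.21, adjusted p 0.00154) and with EGCG (−1.36, SE 0.21, adjusted p 0.00093), by edgeR, and f7 beside it did not pass in either. The gene of factor VIII, f8, a cofactor made largely by endothelial cells in mammals, had 9.48, 5.73 and 7.76 CPM with EGCG, against 16.2, 13.6 and 15.2 CPM in DMSO. In edgeR's test f8 fell with EGCG (−0.99 on the log2 scale, SE 0.16, adjusted p 0.000971) and was also lower with EGCG than with testosterone alone (−1.23, adjusted p 0.0012). Of the tissue factor genes f3a and f3b, f3a rose in every exposure, at 1.70 to 5.47 CPM over all libraries. The log2 fold change was 0.97 for testosterone (adjusted p 0.0485), 1.18 for calindol (adjusted p 0.00476) and 0.88 for EGCG (adjusted p 0.0434). With clutch as a block its testosterone and EGCG calls were lost, as they were in 11 and 8 of 17 alternatives, at adjusted p values of at most 0.174 and 0.137. By edgeR, f3b did not pass with testosterone (−0.11, adjusted p 0.799) or with calindol (0.29, adjusted p 0.251). The mean of f3b was 5.50 CPM with EGCG, against 6.01 CPM in DMSO, and it did not pass there either.

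Of 9 anticoagulant rows tested, 1 rose with testosterone, 2 rose with calindol, and with EGCG 1 rose and 1 fell. Over all genes, 2.93% rose with testosterone and 11.5% with calindol, while with EGCG 7.69% rose and 9.33% fell. The gene proca (protein C, which inactivates factor V; ENSDARG00000038258) rose with testosterone (log2 fold change 0.84, adjusted p 0.00757) and with calindol (0.48, adjusted p 0.0461, lost in 8 of 17 alternatives, the clutch block among them). The symbol belongs to another identifier too, which moved the same way but did not pass. By edgeR it had 0.60 with testosterone (adjusted p 0.0651) and 0.49 with calindol (adjusted p 0.0607). The gene serpina10a, encoding the inhibitor that acts on factor X with protein Z, rose with calindol (0.49, adjusted p 0.000226) and with EGCG (0.25, adjusted p 0.0346, lost in 6 of 17 alternatives). The thrombin receptor thrombomodulin, thbd, fell with EGCG (−1.001, adjusted p 0.0339, lost in 6 of 17 alternatives, the clutch block among them). The protein C cofactor gene pros1 rose with EGCG only against testosterone alone (0.55, adjusted p 0.043, lost in 9 of 17).

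In the fibrinolysis list of 5 genes tested, none passed with testosterone by edgeR or DESeq2, and 0 had an unadjusted p under 0.05. Over all genes, 6.32% passed with testosterone by edgeR. Plasminogen, plg, whose product dissolves fibrin, fell with EGCG, with 112, 114 and 114 CPM against 163, 155 and 149 CPM in DMSO (log2 fold change −0.46, adjusted p 0.00865). The urokinase gene plaub was lower with EGCG than with calindol (−1.46, adjusted p 0.00759). The vitamin K cycle serves the γ-carboxylation that f2, f7 and f10 proteins need. Of its 5 genes tested, 3 rose with calindol and 2 fell with EGCG, against 11.5% and 9.33% of all genes. None passed with testosterone by edgeR or DESeq2, and 0 had an unadjusted p under 0.05. The log2 fold change of the carboxylase gene ggcx was 0.30 with calindol (adjusted p 0.0263, lost in 4 of 17 alternatives) and −0.33 with EGCG (adjusted p 0.0284, lost in 5 of 17). The quinone reductase gene nqo1 had 0.60 with calindol and −0.48 with EGCG (adjusted p 0.00601 and 0.0379, the EGCG call lost in 7 of 17 alternatives and with the clutch block), and aifm2, encoding a vitamin K reductase, had 0.52 with calindol (adjusted p 0.00811). Genes of these clotting lists with no count in any library were f9a, f13b, kng1, serpinc1, tfpi2 and cpb2. Whether they were silent or their reads were not assigned to these rows was not tested. The same holds for markers at 0 below.

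**Figure D5:**
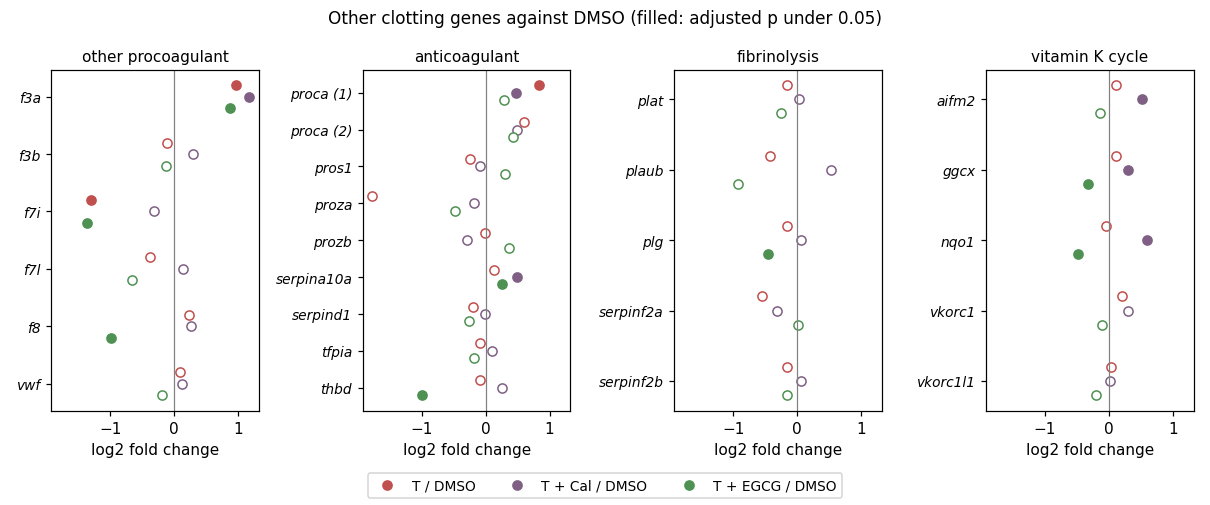
Log2 fold change against DMSO (x axes) of other coagulation factor, anticoagulant, fibrinolysis and vitamin K cycle genes, with testosterone (T), testosterone and calindol (T + Cal) and testosterone and EGCG (T + EGCG); filled points have an adjusted p under 0.05, and proca appears once for each of its 2 identifiers. The gene f3a is filled in all 3 exposures and f7i with testosterone and with EGCG.

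Markers of the cells that make these proteins are given next. Of 15 hepatocyte marker genes tested, 1 rose and 2 fell with testosterone, 4 rose and 1 fell with calindol, and 2 rose and 5 fell with EGCG. The shares over all genes, in both directions, were 6.32% with testosterone, 27.4% with calindol and 17% with EGCG. The summed level of all 16 hepatocyte markers in the table was 5037 to 5761 CPM with testosterone, 5200 to 7017 CPM with calindol and 4365 to 4458 CPM with EGCG, against 6445 to 6672 CPM in DMSO. The gene apoa2 was then left out, since its mean differed most from DMSO in any exposure. Without it the sum was 2558 to 2954 CPM with testosterone and 2221 to 3017 CPM with calindol. It was 2125 to 2225 CPM with EGCG, against 2986 to 3106 CPM in DMSO. The largest parts of this sum in DMSO were tfa and rbp4, with means of 994 and 845 CPM. Their means were 859 and 604 CPM with testosterone and 606 and 484 CPM with EGCG. The lower sums with these exposures thus rested largely on tfa and rbp4. With calindol tfa differed more than apoa2. Its mean was 478 CPM against 994 CPM in DMSO, and that of apoa2 was 3373.5 CPM against 3519 CPM. Individual markers went in opposite directions with EGCG: the retinol carrier gene rbp4 (log2 fold change −0.81, adjusted p 0.000111), the transferrin gene tfa (−0.71, adjusted p 0.00362) and the apolipoprotein gene apoa2 (−0.66, adjusted p 0.000769) fell. In contrast, the bikunin precursor gene ambp (0.90, adjusted p 0.00406) and fabp10a (1.52, adjusted p 0.00249), a liver fatty acid binding protein named here after its value was seen, rose. The other exposures split too, by edgeR's test. With testosterone ambp rose (1.03, adjusted p 0.00252). In that group rbp4 (−0.49, adjusted p 0.0066) and apoa2 (−0.37, adjusted p 0.0414, lost in 9 of 17 alternatives) fell. With calindol tfa fell (−1.06, adjusted p 7.97e-05) and ambp rose (0.51, adjusted p 0.0434, lost in 5 of 17). The genes cfb (1.204, adjusted p 0.00431), cp (0.382, adjusted p 0.00635) and fabp10a (0.805, adjusted p 0.0406) also rose with calindol. They are named after their values were seen. With testosterone alone fabp10a did not pass (0.941, adjusted p 0.0556). The part of these markers in the fall of f2, fga and fgb was not tested.

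In mammals the factor XIII A chain is made by macrophages and platelets, so markers of macrophages and of thrombocytes, the platelet counterpart in fish, are given beside f13a1a.1. Of 7 macrophage markers tested, 1 fell with testosterone, 1 rose and 1 fell with calindol, and 3 fell with EGCG. Over all genes, 3.39% fell with testosterone, 11.5% rose and 15.9% fell with calindol, and 9.33% fell with EGCG. The sum of the 11 genes in the table was 57.1 to 64.4 CPM with testosterone, 79.0 to 109.8 CPM with calindol and 38.0 to 45.1 CPM with EGCG, against 84.8 to 94.7 CPM in DMSO, with mpeg1.1, c1qa, c1qb and c1qc at 0 in all libraries. Without mpeg1.2 the sum was 49.7 to 58.2 CPM with testosterone, 56.8 to 80.2 CPM with calindol and 34.1 to 38.8 CPM with EGCG, against 51.1 to 57.9 CPM in DMSO. The lower sum with testosterone thus rested on mpeg1.2, and the sum with EGCG was below DMSO with and without it. The markers mpeg1.2 (log2 fold change −2.23 with testosterone, adjusted p 2.48e-06, and −2.84 with EGCG, adjusted p 7.93e-07), marco (−1.47 with EGCG, adjusted p 0.00147) and spi1b (−0.95 with EGCG, adjusted p 0.0136, lost in 3 of 17 alternatives) fell, and lgals9l1 rose with calindol (0.82, adjusted p 0.00224). With calindol mpeg1.2 also fell (−0.43, adjusted p 0.0489, lost in 8 of 17 alternatives, the clutch block among them).

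Of 9 thrombocyte markers tested, 1 rose with testosterone, 2 rose with calindol, and 1 rose and 1 fell with EGCG. Over all genes, 2.93% rose with testosterone, 11.5% rose with calindol, and 7.69% rose and 9.33% fell with EGCG. The sum of the 11 thrombocyte markers in the table was 42.9 to 47.7 CPM with testosterone, 35.5 to 45.0 CPM with calindol and 32.6 to 39.4 CPM with EGCG, against 26.9 to 32.9 CPM in DMSO. Without itgb3a it was 27.7 to 33.1 CPM with testosterone, 30.6 to 33.1 CPM with calindol and 23.9 to 29.3 CPM with EGCG, against 23.98 to 27.2 CPM in DMSO. These sums without 1 gene were added after the values were seen. The integrin gene itgb3a rose with testosterone (1.82, adjusted p 0.00341) and with calindol (0.98, adjusted p 0.0366, lost in 5 of 17 alternatives, the clutch block among them). By edgeR, the related gene itgb3b did not pass with testosterone (−0.05, adjusted p 0.924) or with calindol (0.10, adjusted p 0.725). The thrombin receptor gene f2rl2 rose with calindol (1.45, adjusted p 0.00565). With EGCG the platelet glycoprotein gene gp1bb rose (1.078, adjusted p 0.00688) and the kindlin gene fermt3b fell (−1.26, adjusted p 0.039, lost in 6 of 17 alternatives, the clutch block among them). The defining marker itga2b was at 0.0796 to 1.14 CPM with testosterone, 0.759 to 1.17 CPM with calindol and 0.127 to 0.661 CPM with EGCG, against 0.583 to 1.00 CPM in DMSO. The part of either cell type in the level of f13a1a.1 was not tested.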

How the data were processed

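RNA from whole embryos was sequenced as directional poly(A) libraries, per the labels' protocols. The authors deposited raw counts per gene for the 12 libraries. Per the submitters' processing notes, these involved Trim Galore 0.6.10, STAR 2.7.1a, featureCounts and the build GRCz11. The annotation, the strand setting and the handling of reads with several map positions are not given in the sources used here, so overlapping genes and close copies may share reads. Gene positions are not given.

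The counts were tested with edgeR 4.0.16 in R 4.3.3. Low genes were removed with filterByExpr (minimum count 10), and TMM set the library sizes. A single quasi-likelihood model took all 12 libraries, with 1 coefficient for each group, which leaves 8 residual degrees of freedom, and tests were two-sided. The step was tested on simulated data, for testosterone against DMSO only. The planted log2 fold changes were of at least 1 in size, larger than any called among the members. That run therefore does not show how changes of the members' size are recovered. The design named all 9 members, up to 4 genes of each of the 10 other lists by smallest p, and the 5 genes most correlated with f13a1a.1 and with fgb. Some genes named outside this rule are marked in the text or appear as listed genes at 0. Others were added after the values were seen, to show listed genes that did not pass. The members and lists were chosen with earlier results of these data known. The fibrinolysis list leaves out 1 gene, which is not reported here. Libraries of a group came from different clutches. The clutch number in the labels marks a shared clutch, so it pairs the libraries. Their deviations from the group means correlated within a clutch at a mean r of 0.012 across genes (18 pairs, −0.0864 to 0.103), and between clutches at −0.00578 (36 pairs). Alternatives were DESeq2 size factors, no filter, DESeq2 1.42.0 as the test, clutch as a block, only the 6 libraries compared, leaving out each library, and a log2 fold change of at least 1.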

Additional observations from a re-analysis of the deposited data

How the results depend on the processing

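Over the 17 alternatives to each of 51 fold changes of the members, 805 results kept their side of the threshold, 38 lost the call and 24 gained it, and no called direction reversed. Some fold changes that had not passed crossed 0, such as f13a1a.1 for EGCG against testosterone (−0.09 to 1.27). The number of members called is given next for each comparison, with the settings that changed it. With testosterone against DMSO it was 0, with 1 by the DESeq2 test and 0 to 2 without a library. With calindol against DMSO it was 1, with 0 without a filter, with clutch as a replicate block, in the 6 libraries compared, by DESeq2 and at a log2 fold change of at least 1, and 0 to 1 without a library. With EGCG against DMSO it was 6, with 7 in the 6 libraries compared, 0 at a log2 fold change of at least 1 and 5 to 7 without a library. With calindol against testosterone it was 4, with 5 without a filter and by DESeq2, 3 with the replicate block, 1 in the 6 libraries compared, 0 at a log2 fold change of at least 1 and 1 to 5 without a library. With EGCG against testosterone it was 3, with 4 without a filter and by DESeq2, 0 at a log2 fold change of at least 1 and 0 to 6 without a library. With EGCG against calindol it was 7, with 0 at a log2 fold change of at least 1 and 7 to 7 without a library. The replicate block ended the calls of f7 (calindol against DMSO) and f10 (calindol against testosterone) and changed no other call of a member. Where the cause of a lost call is not given by fewer samples or genes, the cause was not tested. DESeq2 size factors moved the median log2 fold change by at most 0.0298. The 3 DMSO counts of f13a1a.1 limit its ratios, and the EGCG library of clutch 1 has the lowest depth.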

Other observations

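Factor XIII belongs to the transglutaminases, and other members of that family were also read. Of 9 other transglutaminase genes tested, 1 rose and 1 fell with testosterone, 1 rose and 1 fell with calindol, and 2 fell with EGCG. The shares over all genes, in both directions, were 6.32% with testosterone, 27.4% with calindol and 17% with EGCG. The gene tgm1l3 had 0.398, 0.434 and 0.655 CPM with testosterone, 0.217, 0.455 and 0.307 CPM with calindol, and 0.474, 1.21 and 1.54 CPM with EGCG, against 2.75, 5.62 and 3.52 CPM in DMSO. It fell in all 3 exposures by edgeR's test. The exposed values rest on few counts, since 1 count equals 0.0437 to 0.119 CPM in those libraries. The log2 fold change was −2.94 for testosterone (adjusted p 0.000724), −3.56 for calindol (adjusted p 6.54e-05) and −1.79 for EGCG (adjusted p 0.00822, and 0.0535 without the DMSO library of clutch 2). The gene tgm2b rose with testosterone (0.47, adjusted p 0.00762) and with calindol (0.57, adjusted p 0.000488). The gene tgm1l1 fell with EGCG (−0.38, adjusted p 0.00891), and tgm1 was lower with EGCG than with calindol (−0.97, adjusted p 0.00814).

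Fibrinogen is also an acute-phase protein, made in larger amounts during inflammation. In a list of acute-phase and interleukin 6 pathway genes, 12 were tested, of which 6 rose with calindol, 1 fell with testosterone and 2 fell with EGCG. Over all genes, 11.5% rose with calindol, 3.39% fell with testosterone and 9.33% fell with EGCG. With calindol the receptor genes il6st (0.66, adjusted p 1.21e-05) and il6r (0.95, adjusted p 8.16e-05) and the complement gene c3a.1 (0.75, adjusted p 0.00363) rose. The genes stat3 (0.60, adjusted p 0.000173), socs3b (0.86, adjusted p 0.0014) and il1b (2.25, adjusted p 0.00138) rose too by edgeR. These are named after their values were seen, and il1b had a mean of only 0.769 CPM in DMSO. In that comparison hp (0.17, adjusted p 0.355), lect2l (−0.18, adjusted p 0.564), hamp, fgl2a, il6 and socs3a did not pass by edgeR. The genes fga, fgb and fgg did not pass in it either. With calindol against testosterone alone, 7 of the 12 genes rose, against 11% of all genes, and fgb passed too (0.47, adjusted p 0.0164). The signalling inhibitor gene socs3a fell with testosterone (−1.57, adjusted p 0.000127) and with EGCG (−0.73, adjusted p 0.0142, lost in 2 of 17 alternatives). Among 9 liver transcription factor genes tested, 2 fell with testosterone, 1 rose and 5 fell with calindol, and 2 fell with EGCG. The share of all genes that fell with calindol was 15.9%, and the other shares are those given above. With calindol cebpb rose (0.64, adjusted p 0.0001), and prox1a (−0.38, adjusted p 0.0067) and nr5a2 (−0.52, adjusted p 0.00113) fell. The bile acid receptor gene nr1h4 fell in all 3 exposures, by −1.67 with testosterone, −1.01 with calindol and −1.04 with EGCG (adjusted p 0.00559, 0.0225 and 0.0351, the last 2 lost in 4 and 5 of 17 alternatives).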
